A study of Mus musculus with 24 samples.

Results

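The interferon response and the Ifitm family were followed through 9 genes, Ifitm1, Ifitm2, Ifitm3, Ifit1, Ifit3, Isg15, Irf7, Oasl2 and Rsad2, in the left lung lobe of newborn mice. These genes were picked by symbol out of the 23420 genes in each deposited table, and all 9 were listed and tested in every comparison. The experiment removed Vangl2 (a component of planar cell polarity signaling) or Ror2 (a receptor that acts with it) with a Cre recombinase driven by the Sox9 promoter. It comprised 24 lungs in 8 groups of 3. Vangl2f/f; Sox9Cre/+ lungs and Ror2f/f; Sox9Cre/+ lungs were collected on postnatal day 2 (P2) and day 5 (P5). Each of these 4 groups had its own control lungs, titled Control(Vangl1/2) or Control(Ror2) and marked WT in the deposited values. The labels do not say whether the controls carried Cre or whether they were littermates of the mutants. Sox9-Cre is active in the SOX9+ distal lung epithelium and in some cells elsewhere. Whole lobes were sequenced with all their cell types, and fewer cells of a type cannot be told apart from less RNA per cell. Values are normalized counts, the reads on a gene scaled by the size factor of that lung, and fold changes are log2(normalized count + 1) of mutant over control with the standard error (SE) of limma.

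Type I interferons are secreted when a cell senses foreign or misplaced nucleic acid. They signal through the receptor of Ifnar1 and Ifnar2 to a complex of transcription factors that includes IRF9. That complex binds a short element in the promoters of interferon-stimulated genes. IFITM proteins sit in cell membranes and hinder the entry of enveloped viruses, and IFITM3 guards the airway against influenza virus. IRF7 is the transcription factor that raises interferon production further. ISG15 is a ubiquitin-like modifier, IFIT1 and IFIT3 work together to bind foreign RNA, OASL2 belongs to the oligoadenylate synthetase family, and RSAD2 (viperin) makes a nucleotide that stops viral polymerases.

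Ifitm1, Ifitm2 and Ifitm3 are neighbours on mouse chromosome 7, within 55.93 kb (GRCm38, chr7:140954837-141010770). Ifitm1 (chr7:140967221-140969825) lies on the plus strand, and Ifitm2 (chr7:140954837-140955987) and Ifitm3 (chr7:141009586-141010770) lie on the minus strand. Irf7 (chr7:141262706-141266481, minus strand) is on the same chromosome and overlaps Phrf1 on the opposite strand. Ifit3 (chr19:34583531-34588731) and Ifit1 (chr19:34640871-34650009) are both on the plus strand of chromosome 19. Isg15 is at chr4:156199424-156200818 (minus strand), Oasl2 at chr5:114896936-114912234 (plus strand) and Rsad2 at chr12:26442746-26456452 (minus strand).

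The promoters of 6 of the 9 genes held the core letters of an interferon-type element, GAAANNGAAA on either strand, in the 300 bases from 250 before to 50 after the RefSeq start site. The same letters were found in such windows of 3.99% of 27025 genes with a promoter, and in 40.54% of the 111 genes with a promoter in the interferon pathway lists described further on. Matches lay in Ifitm2, Ifitm3, Ifit1, Ifit3, Isg15 and Rsad2, and the windows of Ifitm1, Irf7 and Oasl2 held none. The Ifitm1 window (chr7:140967826-140968125) begins inside the gene, whose GENCODE start is chr7:140967221, and the bases before that start were not searched. A match describes the letters only. The stretches that carry them are shown because the windows of the 2 neighbours of Ifitm1 hold the motif. The window searched for Ifitm1, the gene with the largest fold change, does not. Each is 30 bases of the strand of the gene, 5′ to 3′ (RefSeq, GRCm38.p6), with the match in capitals, and TTTCNNTTTC is the same motif on the other strand.
Ifitm2, chr7:140955988-140956017 (minus strand): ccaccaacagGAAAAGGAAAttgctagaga
Ifitm3, first, chr7:141010723-141010752 (minus strand): caaaattcagGAAAAGGAAActtctgagaa
Ifitm3, second, chr7:141010706-141010735 (minus strand): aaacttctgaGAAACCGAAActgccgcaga
Ifit1, chr19:34640794-34640823 (plus strand): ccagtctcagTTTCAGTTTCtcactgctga
Ifit3, chr19:34583397-34583426 (plus strand): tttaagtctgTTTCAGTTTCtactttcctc
Isg15, chr4:156200877-156200906 (minus strand): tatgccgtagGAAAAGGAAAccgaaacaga
Rsad2, chr12:26456553-26456582 (minus strand): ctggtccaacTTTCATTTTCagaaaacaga
Ifit1 and Ifit3 each held a second match. In Isg15 there were 3 overlapping matches, of which the first is shown, and its window runs on into the other two.

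**Figure D1:**
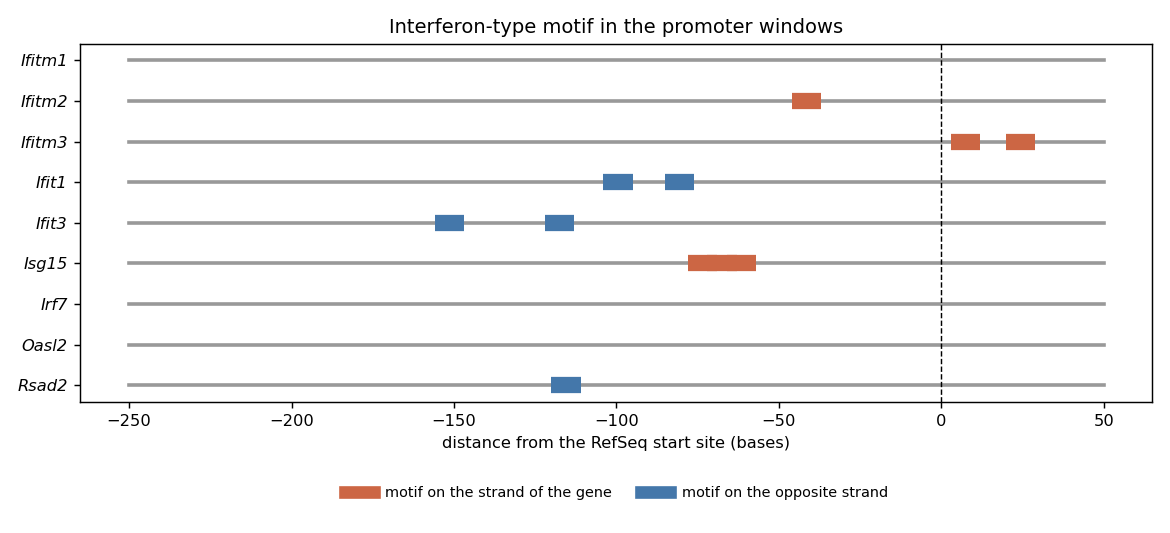
Position of each match to the interferon-type motif (GAAANNGAAA) in the promoter window of the 9 genes, in bases from the RefSeq start site on the horizontal axis, with 1 row a gene and colours for the strand. Ifitm2, Ifitm3, Ifit1, Ifit3, Isg15 and Rsad2 hold at least 1 match, and Ifitm1, Irf7 and Oasl2 hold none.

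Reads on genes numbered from 16178031 to 21546673 in 20 of the 21 lungs whose reads could be recovered, and 13823693 in Ror2 P5 control replicate 1. That lung was listed at 0 for 4446 of 4697 expressed genes on chromosomes 5 to 9 and X, against 2 of 9334 on the other autosomes, so its values there were set to missing, which leaves 2 control lungs for Ifitm1, Ifitm2, Ifitm3, Irf7 and Oasl2 at P5 in the Ror2 comparison. Vangl2 had 249, 302 and 281 normalized counts in the controls and 241, 224 and 173 in the mutants of its own comparison at P2 (limma adjusted p = 0.241), and 369, 314 and 292 against 169.5, 148 and 166 at P5 (limma adjusted p = 0.0604). Ror2 had 451, 581 and 519.8 in the controls and 479, 349 and 366 in the mutants at P2 (limma adjusted p = 0.25), and 526, 368 and 597 against 362, 439.7 and 521 at P5 (limma adjusted p = 0.692) with overlap, so Ror2 does not check the labels in whole lobes. All 12 lung epithelial markers, among them Nkx2-1 and Sftpc, were detected in every table. A few lungs stood apart in ways that touch the 9 genes. Vangl2 P2 control replicate 1 was the highest of the 6 lungs for 24 of 28 interferon-gamma-responsive genes and 43 of 59 type I interferon-stimulated genes. Xist was high in that lung and low in the other 2 controls, and it was low in Vangl2 P5 mutant replicate 1 alone of its table, so sex was not balanced. In the Vangl2 P2 mutants Xist was low in replicate 1 and high in replicates 2 and 3. In Ror2 P5 lungs the 2 usable controls had 11858 and 12.9 normalized counts of Xist, and the mutants 12.7, 5.22 and 130. Vangl2 P5 mutant replicate 3 was the highest of its 6 lungs for 7 of 12 lymphocyte genes, control replicate 3 for 4 and mutant replicate 2 for 1. Cd8a was far higher in that mutant replicate 3 than in the other lungs (3475 against 19.0 to 64.5). Ror2 P2 control replicate 3 had neutrophil genes at a sum of 29903.

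Ifitm1 rose in Vangl2 mutant lungs at both ages, and it was the only gene of the 9 to pass the test. In the Vangl2 comparison at P2 the control lungs had 583, 414 and 469 normalized counts and the mutant lungs 3915, 1993 and 2119. Every mutant lung lay above every control lung. The log2 fold change was 2.39 (SE 0.26, limma with Benjamini-Hochberg adjusted p = 0.0248), a fold of 5.26, and 3.59% of the 17448 genes tested were called in that comparison. Without control replicate 2 or 3 the log2 fold change stayed at 2.28 and 2.37 while the limma adjusted p rose to 0.134 and 0.124, the first of which was the highest over all alternatives.

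At P5 the Vangl2 controls had 318, 174 and 199 normalized counts of Ifitm1 and the mutants 1453, 603 and 1046. The groups again did not overlap, and the log2 fold change of 2.12 (SE 0.34) was called at limma adjusted p = 0.0484, where 0.563% of 17410 genes were called. The replicate numbers pair the lungs in this table, and in a fit with that number as a block the limma adjusted p was 0.00289. Without the block the call was close to the threshold. Leaving out control replicate 1, 2 or 3 or mutant replicate 1 or 3 gave limma adjusted p of 0.0586, 0.168, 0.0892, 0.0855 and 0.166, with log2 fold changes of 2.38, 1.95, 2.04, 1.83 and 2.07.

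In the Ror2 comparison Ifitm1 had 534, 588 and 1445 normalized counts in the P2 controls and 1082, 973 and 3061 in the P2 mutants. The groups overlapped through control replicate 3, and the log2 fold change was 0.94 (SE 0.52, limma adjusted p = 0.347). At P5 the 2 usable controls had 403 and 399.9 and the mutants 1531, 849 and 425. Mutant replicate 3 was close to the controls and the other 2 mutants were far above them. The log2 fold change was 1.03 (SE 0.47, limma adjusted p = 0.297), and without mutant replicate 3 it was 1.50 (limma adjusted p = 0.0412, against up to 0.573 under the other alternatives). The Vangl2 effect was larger than the Ror2 effect by 1.45 at P2 (SE 0.65, limma adjusted p = 0.946) and by 1.09 at P5 (SE 0.65, limma adjusted p = 0.998), and neither difference passed the test.

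Markers of other cells moved in the Vangl2 mutant lungs, where Ifitm1 was high. Of 11 neutrophil markers, 9 were called higher in Vangl2 mutants at P2 and 4 at P5, where 1.5% and 0.534% of all genes were. Their summed level ran from 3858 to 5930 in the P2 controls and from 11530 to 14686 in the P2 mutants. At P5 the sums were 3880 to 5387 in controls and 11439 to 26294 in mutants, and none of the 11 was at 0 in every lung of a table. The macrophage sum at P5 was 17552 to 27891 in controls and 40338 to 52398 in mutants, with 10 of 12 macrophage markers higher at an unadjusted p under 0.05 (18.8% of all genes in either direction) and none called. At P2 8 of the 12 were (22.5% of all genes in either direction), and 1 was called. Of 12 lung epithelial markers, 4 were called higher in Vangl2 mutants at P2. Over 12 endothelial markers the median at P5 was -0.49 on the log2 scale (11 of 12 negative, 6 of them at an unadjusted p under 0.05, none called). Ror2 P2 control replicate 3, the control with the most Ifitm1, was also the lung with the highest neutrophil sum. Without that control the Ror2 P2 log2 fold change of Ifitm1 was 1.40. Ror2 P2 mutant replicate 3 had more Ifitm1 (3061 normalized counts). It was the highest lung of its comparison for 0 of 11 neutrophil and 10 of 12 lung epithelial markers. In Ror2 P2 mutants the median log2 fold change was -0.0081 over the 11 neutrophil and -0.44 over the 12 macrophage markers. The macrophage sums of that comparison overlapped, at 24433 to 40344 in controls and 31055 to 44846 in mutants. In Ror2 P5 mutants the medians were 0.48 over 10 tested neutrophil markers (9 positive) and 0.058 over the 12 macrophage markers (9 positive). None of those was called, where 0.128% of all genes were. The part of these cells in the Ifitm1 values was not tested.

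Ifitm2 was the most abundant of the 9 for its length. Per kilobase of exon its control mean lay between 7431 and 9178 normalized counts, against 2970 to 4740 for Ifitm3 and 211 to 782 for Ifitm1. Ifitm2 had 5306, 4605 and 5174 normalized counts in the Vangl2 P2 controls and 6579, 5015 and 7369.7 in the mutants, with overlap. Its log2 fold changes were 0.31 and 0.08 in Vangl2 mutants at P2 and P5 and 0.02 and -0.05 in Ror2 mutants, with SE between 0.08 and 0.15, and it passed the test in none (the lowest limma adjusted p was 0.26). Of its 50-base exon windows 48.51% also occur in another annotated gene, most of them in Gm45717, which overlaps it on the same strand and has no row in the tables. How such reads were assigned is not given, so levels of Ifitm2 are uncertain in that respect.

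Ifitm3 had 2393, 2165 and 2667 normalized counts in the Vangl2 P5 controls and 6459, 2911 and 3027 in the mutants. All 3 mutant lungs lay above the controls, but mutant replicate 1 stood well above the other 2, and the log2 fold change of 0.68 (SE 0.29, limma adjusted p = 0.262) fell to 0.31 without it. At P2 the same comparison gave 4708, 2467 and 2466 in controls and 2789, 2961 and 4081 in mutants. Control replicate 1 was the highest of those 6 lungs, and the log2 fold change was 0.08 (SE 0.26), or 0.39 without that lung. In Ror2 lungs at P5 the 2 usable controls had 1966 and 2061 and the mutants 3226, 2605 and 2571. This was a narrow spread with no overlap, and the log2 fold change of 0.47 (SE 0.11) did not pass the test (limma adjusted p = 0.142, exact two-sided permutation p = 0.2, the smallest that 2 lungs against 3 gave). At P2 Ror2 mutants had a log2 fold change of 0.05 (SE 0.16).

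**Figure D2:**
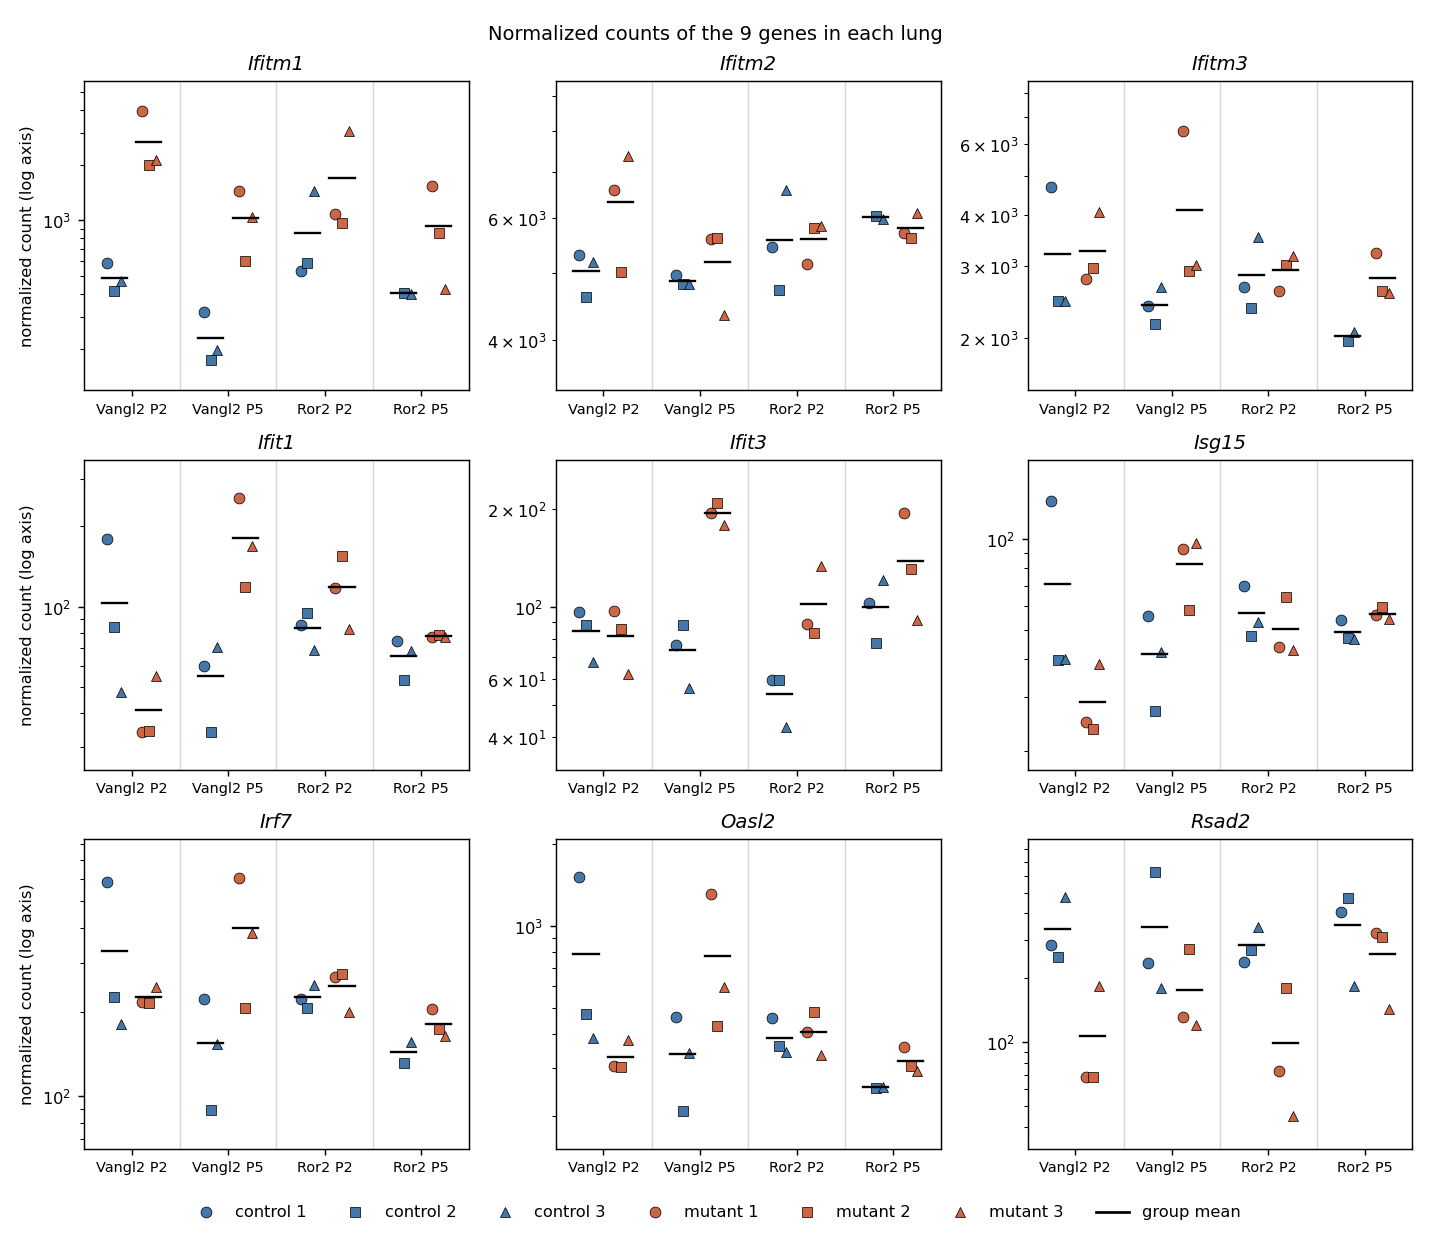
Normalized counts of each of the 9 genes (1 panel a gene, log axis) in the 3 control (blue) and 3 mutant (orange) lungs of the 4 comparisons, with the replicate number as the marker and a bar for the group mean. Ifitm1 in Vangl2 P2 lungs runs from 414 to 583 in controls and from 1993 to 3915 in mutants, and Vangl2 P2 control replicate 1 stands above the other controls for Ifitm3, Ifit1, Isg15, Irf7 and Oasl2.

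The interferon-stimulated genes Irf7, Isg15, Oasl2, Ifit1 and Ifit3 had positive log2 fold changes in Vangl2 mutants at P5 and negative ones at P2. At P5 none of the 5 passed the test without the block, and 4 of them (Irf7, Oasl2, Ifit1 and Ifit3) did in the fit blocked by replicate number. The block rests on a pairing that was inferred from these same data and is on no label. With the block 8.95% of all genes tested were called, 5.47% higher and 3.48% lower, and 6 of the 9 genes were: these 4, Ifitm1 and Rsad2. At P2 none of the 5 passed the test.

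Irf7, the regulator among them, had 224, 89.3 and 154 normalized counts in the Vangl2 P5 controls and 607, 207 and 386 in the mutants. The groups overlapped, but each mutant lung was above the control lung of its own number. Its log2 fold change was 1.32 (SE 0.44, limma adjusted p = 0.176, or 0.00967 with the block). At P2 the controls had 586, 227 and 181 and the mutants 218, 215 and 245. Control replicate 1 alone was far from the rest, and the log2 fold change of -0.35 (SE 0.39, limma adjusted p = 0.633) became 0.16 without it.

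Oasl2 gave the same arrangement of lungs. At P5 the Vangl2 controls had 461, 209 and 339.6 normalized counts and the mutants 1300.4, 429 and 593, with mutant replicate 1 highest and the groups overlapping. Its log2 fold change was 1.11 (SE 0.43, limma adjusted p = 0.218, or 0.0166 with the block), and without mutant replicate 1 it was 0.65. At P2 the controls had 1505, 474 and 385 and the mutants 305, 302 and 379. All mutants lay below all controls, and control replicate 1 stood far above the other 5 lungs. The log2 fold change was -0.99 (SE 0.45, limma adjusted p = 0.246), and without that lung it was -0.39.

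Isg15 had 55.7, 27 and 42.3 normalized counts in Vangl2 P5 controls and 92.6, 58.2 and 97.4 in mutants. No mutant lung overlapped the controls, and the log2 fold change was 1.00 (SE 0.36, limma adjusted p = 0.203, or 0.0601 with the block). At P2 it had 134, 39.8 and 40.2 in controls and 24.8, 23.6 and 38.7 in mutants. Control replicate 1 was again several times higher than the other 2, and the log2 fold change moved from -1.06 (SE 0.49, limma adjusted p = 0.255) to -0.48 without it.

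Ifit1 had 60.2, 34.1 and 70.5 normalized counts in Vangl2 P5 controls and 256, 119 and 169 in mutants. All mutants were above all controls. Its log2 fold change of 1.70 (SE 0.38, limma adjusted p = 0.09, or 0.0172 with the block) was the second largest of the 9 in that comparison. At P2 the controls had 179, 84.4 and 47.9 and the mutants 34.1, 34.4 and 55. That gave a log2 fold change of -1.14 (SE 0.47, limma adjusted p = 0.203), and -0.65 without control replicate 1.

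Ifit3, the partner of Ifit1, had the smallest SE of these 5 genes in both Vangl2 comparisons. The Vangl2 P5 controls had 76.6, 88.2 and 56.4 normalized counts and the mutants 195, 209 and 179, a mean of 73.7 ± 16.1 (SD, n = 3) against 194 ± 15.3. The log2 fold change was 1.41 (SE 0.24), just outside the threshold at limma adjusted p = 0.0569 and inside it with the block (0.0172). At P2 the controls had 96.9, 88.2 and 68 and the mutants 97.2, 85.6 and 62.1, which overlapped fully, and control replicate 1 was not set apart for this gene. Of the 50-base exon windows of Ifit3 51.24% also occur in Ifit3b, a near-identical copy with no row in the tables, so reads of the 2 genes may be split or lost in counting.

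None of these 5 genes passed the test in the Ror2 comparisons. At P2 their log2 fold changes were 0.12 for Irf7, 0.07 for Oasl2, -0.18 for Isg15, 0.47 for Ifit1 and 0.89 for Ifit3. Ifit3 had 59.8, 59.7 and 42.9 normalized counts in the controls and 89, 83.4 and 133 in the mutants, without overlap (SE 0.27, limma adjusted p = 0.206). None of the 17541 genes tested was called in that comparison by limma (0%), while 3380 had an unadjusted p under 0.05, and edgeR called 0 and DESeq2 794. At P5 the log2 fold changes were 0.33, 0.31, 0.20, 0.26 and 0.42 in the same order. Oasl2 had 254 and 255 normalized counts in the 2 usable controls and 357, 304 and 292 in the mutants (SE 0.13, limma adjusted p = 0.279). Ifit1 had 74.6, 53.2 and 68.5 in the controls and 77.2, 78.3 and 77.3 in the mutants (SE 0.20, limma adjusted p = 0.504). Both were without overlap at a small difference. The 9 genes included 6 whose Ror2 P5 mutants were all above the controls, against 15.6% of all genes, and 0 whose mutants were all below, against 14.3%. Among the 6, Ifitm1, Ifitm3, Irf7 and Oasl2 had 2 usable controls, and Ifit1 and Isg15 had 3. Full separation is easier to reach with 2 controls, and the shares over all genes pool both kinds, so they are not a like background. None of the 9 was called in Ror2 P5 mutants, and 0.128% of 17179 genes were, 0.064% higher and 0.064% lower.

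Rsad2 was the only gene of the 9 with a negative log2 fold change in all 4 comparisons. At P2 the Vangl2 controls had 283, 251 and 477 normalized counts and the mutants 68.2, 68.8 and 182. The groups did not overlap (log2 fold change -1.76, SE 0.42, limma adjusted p = 0.0612), and without mutant replicate 3 the log2 fold change was -2.22 and the limma adjusted p 0.0102 (0.0017 to 0.214 over all alternatives). The Ror2 P2 controls had 236, 268 and 347 and the mutants 73.3, 179 and 45.2. These were likewise apart, with a log2 fold change of -1.72 (SE 0.46, limma adjusted p = 0.203) that became -2.26 (limma adjusted p = 0.0375, and 0.0287 to 0.530 over all alternatives) without mutant replicate 2. At P5 the Vangl2 controls had 235, 625 and 178 and the mutants 131, 273 and 119.7, each mutant below the control of its number. This gave a log2 fold change of -0.87 (SE 0.49, limma adjusted p = 0.387, or 0.0348 with the block), and -0.33 without control replicate 2. The Ror2 P5 controls had 408, 473 and 184 and the mutants 326, 311 and 142, with overlap (log2 fold change -0.43, SE 0.42).

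**Figure D3:**
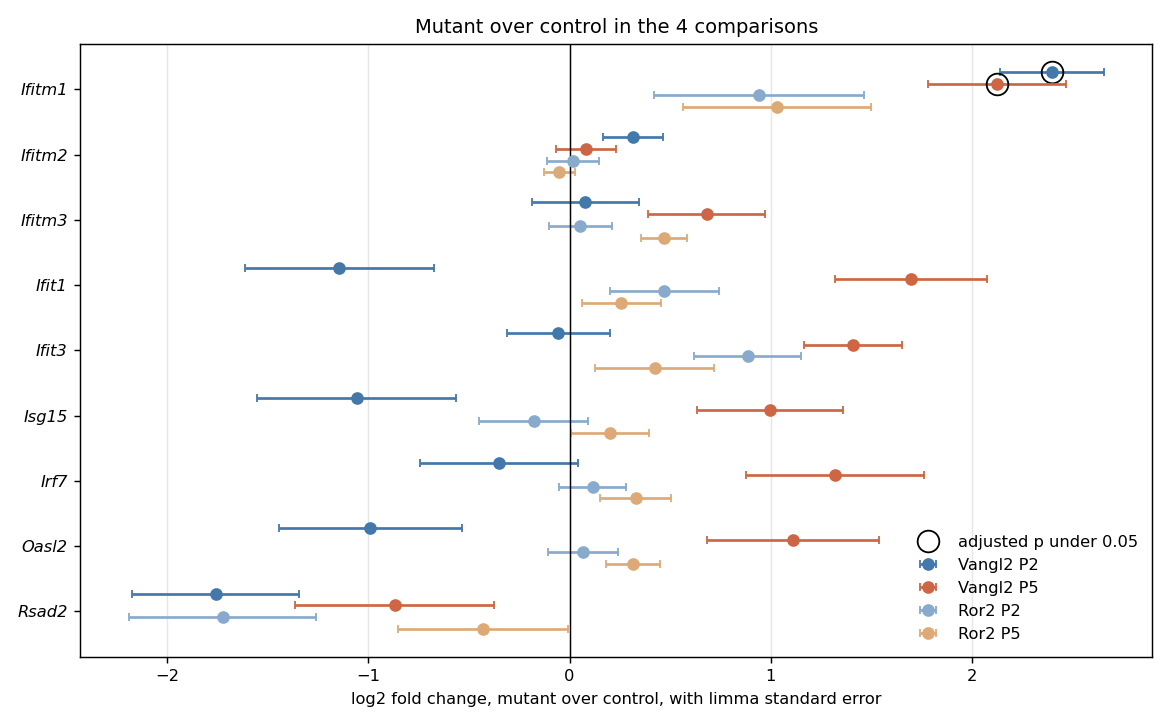
Log2 fold change of mutant over control (horizontal axis) with the limma SE for each of the 9 genes (rows) in the 4 comparisons (colours), with a ring where the adjusted p was under 0.05. Only Ifitm1 in Vangl2 lungs at P2 (2.39) and P5 (2.12) is ringed, Rsad2 is left of 0 in all 4, and Ifit1, Isg15, Irf7 and Oasl2 lie left of 0 in Vangl2 P2 lungs and right of it in Vangl2 P5 lungs.

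Counted over the 9 genes, 1 passed the test in each Vangl2 comparison (Ifitm1) and 0 in each Ror2 comparison. In Vangl2 mutants at P2 all mutant lungs were above all controls for 1 gene (14.6% of all genes) and below for 3 (14.9%), namely Isg15, Oasl2 and Rsad2. At P5 the mutants were all above for 5 genes (13.2% of all genes), Ifitm1, Ifitm3, Ifit1, Ifit3 and Isg15, and all below for 0 (12.5%). In Ror2 mutants at P2 each direction held 1 gene, Ifit3 above (13.4%) and Rsad2 below (12.2%). On the log2 scale the 9 had a median fold change of -0.35 and 1.11 in P2 and P5 Vangl2 mutants and 0.07 and 0.31 in Ror2 mutants, while the median of all genes was 0.0012, 0.0031, -0.0059 and 0.0041. Without control replicate 1 the P2 Vangl2 median of the 9 was 0.051, above 0. An unadjusted p under 0.05 was reached by 3, 7, 2 and 1 of the 9 in that order, against 22.5%, 18.8%, 19.3% and 18.4% of all genes.

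The change of the mutant effect with age was then compared. In Vangl2 lungs it was largest, among the 9, for Ifit1, Oasl2, Isg15, Irf7 and Ifit3. There the P5 effect exceeded the P2 effect by 2.84 for Ifit1 (SE 0.65), which ranked 11 by p among 17068 genes. It exceeded it by 2.10 for Oasl2 (SE 0.70), 2.05 for Isg15 (SE 0.65), 1.67 for Irf7 (SE 0.66) and 1.46 for Ifit3 (SE 0.35). These 5 reached an unadjusted p under 0.05, as did 8.45% of all genes, but no gene was called in this limma test of the difference (0%), and each of the 5 had an adjusted p of 0.577. Part of each difference came from Vangl2 P2 control replicate 1, without which it was 2.35 for Ifit1, 1.50 for Oasl2, 1.48 for Isg15, 1.16 for Irf7 and 1.36 for Ifit3, and 4 of the 9 were then at an unadjusted p under 0.05. Ifitm1 differed between ages by -0.27 (SE 0.48) and Ifitm2 by -0.23 (SE 0.22). In Ror2 lungs 0 of the 9 changed with age at an unadjusted p under 0.05 (9.51% of all genes), and the largest difference was that of Rsad2 (1.29, SE 0.70).

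The Vangl2 effect was also set against the Ror2 effect of the same age. At P2 the Vangl2 minus the Ror2 log2 fold change was -1.62 for Ifit1 (SE 0.59) and -0.94 for Ifit3 (SE 0.37). The Vangl2 P2 log2 fold changes behind these were -1.14 for Ifit1 and -0.056 for Ifit3. Without Vangl2 P2 control replicate 1 they were -0.65 and 0.051. At P5 it was 1.44 for Ifit1 (SE 0.44) and 0.99 for Ifit3 (SE 0.39). Neither gene passed the limma test of the difference at either age (adjusted p from 0.793 to 0.984), and 0% of genes were called at P2 and 0.0118% at P5.

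**Figure D4:**
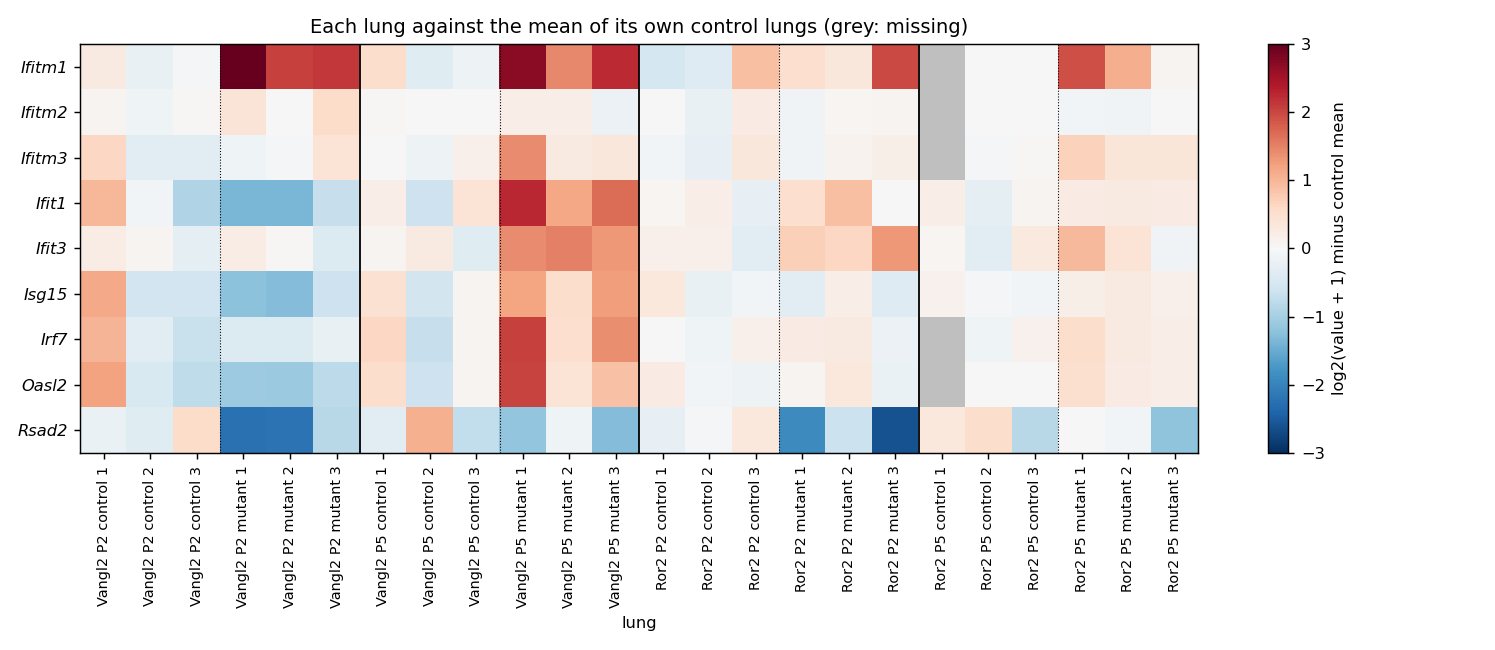
Each lung (columns, 6 a comparison, controls first) against the mean of its own control lungs for the 9 genes (rows), coloured by the difference in log2(normalized count + 1), with grey for the missing values of Ror2 P5 control replicate 1. Vangl2 P2 control replicate 1 is red for Ifit1, Isg15, Irf7 and Oasl2, Vangl2 P5 mutant replicates 1 and 3 are red for all but Ifitm2 and Rsad2, and the Rsad2 row is blue in most mutant lungs.

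The rest of the interferon pathway was taken from 7 lists of ligands, receptors, sensors and effectors, 139 genes of which were in the tables. In Vangl2 mutants at P2, 0 of the 123 tested were called higher and 2 lower, where 1.5% and 2.09% of all genes were. These were Mb21d1, which encodes the DNA sensor cGAS (controls 196, 244 and 220.3, mutants 55.8, 81.6 and 102 normalized counts, log2 fold change -1.49, SE 0.25, limma adjusted p = 0.0326), and Slfn9, a Schlafen gene (controls 642, 942 and 671, mutants 87.9, 199 and 256, log2 fold change -2.16, SE 0.37, limma adjusted p = 0.0326). At P5, 2 of 122 were called higher and 0 lower, against 0.534% and 0.0287% of all genes. Slfn2, a Schlafen gene of immune cells, rose from 239, 222 and 209 to 608, 496 and 822 (log2 fold change 1.49, SE 0.21, limma adjusted p = 0.0287). Ifitm6, the next gene beside Ifitm3 (chr7:141015699-141017924), rose from 93.1, 60 and 72.6 to 387, 203 and 336 (log2 fold change 1.99, SE 0.30, limma adjusted p = 0.0381). In Ror2 P2 control replicate 3, the lung rich in neutrophil genes, Ifitm6 stood at 1345 normalized counts against 79.4 and 102 in the other 2 controls. With the numbers of called genes so small, the lists are given by their medians. In Vangl2 mutants the pathway genes had a median of -0.25 at P2 and 0.41 at P5 on the log2 scale, with 42 of 123 and 103 of 122 positive, and of 0.05 and 0.15 in Ror2 mutants, with 70 of 122 and 96 of 121 positive. The direction at P2 in Vangl2 mutants rested on control replicate 1, without which the median was 0.027 and 66 of 123 were positive. At P5 leaving out any single lung kept the median between 0.31 and 0.49. Vangl2 P5 mutant replicates 1 and 3 were the highest lung for 34 and 17 of 59 type I interferon-stimulated genes, and mutant replicate 2 for 2. For the 28 interferon-gamma-responsive genes they were highest for 15 and 11, and mutant replicate 2 for 0. No fit left out both mutant replicates 1 and 3. In P2 Ror2 mutants the median fell below 0 without control replicate 2 (-0.0047) or mutant replicate 2 (-0.082).

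By list, the median log2 fold change of genes that respond to interferon-gamma was -0.74 in P2 Vangl2 mutants (5 of 28 positive) and 0.53 at P5 (27 of 28 positive). Without control replicate 1 the P2 median was 0.016, with 14 of 28 positive. The type I effectors had -0.27 (16 of 59 positive, or -0.063 and 27 of 59 without that lung) and 0.43 (47 of 59 positive). The 4 genes of ISG15 conjugation had -0.61 (-0.37 without that lung) and 0.41. Igtp, an immunity-related GTPase, had 2346, 229.5 and 195 normalized counts in the Vangl2 P2 controls and 164, 217 and 153 in the mutants, and control replicate 1 alone was high. At P5 it had 228, 142 and 183 in controls and 554, 225 and 338 in mutants (log2 fold change 0.94, SE 0.34, limma adjusted p = 0.198). Igtp was chosen after its values were seen.

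Interferon transcripts themselves were at or near 0. Of 16 ligand genes, between 11 and 13 were at 0 in every lung of a table, and the sum over all 16 was at most 5.69 normalized counts in any lung. Ifnb1 had 1.05 normalized counts in Vangl2 P2 control replicate 1 and 0 in the other 23 lungs. With so few reads a difference in ligand transcripts was not detectable at this depth. The receptor genes were expressed throughout. Ifnar1 had between 2473 and 3880 normalized counts in the Vangl2 lungs of both ages, and it was called in no comparison. Ifnlr1, the receptor for interferon lambda on epithelium, had 217, 228 and 209.6 in the Ror2 P2 controls and 398, 332 and 413 in the mutants (log2 fold change 0.80, SE 0.13, limma adjusted p = 0.203). Its mutants were above its controls without overlap in all 4 comparisons, with log2 fold changes of 0.77 and 0.58 in Vangl2 mutants and 0.59 in Ror2 mutants at P5, and it passed the test in none.

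In Ror2 lungs 0 pathway genes were called at either age. Those with the lowest p at P2 were Ifnlr1, the chemokine gene Cxcl9 (controls 7.22, 8.27 and 13, mutants 0, 0.948 and 1.05, limma adjusted p = 0.203) and Znfx1, an RNA sensor (log2 fold change 0.31, SE 0.08). At P5 they were Tgtp2, a GTPase gene (controls 44.8, 65.3 and 46.6, mutants 151, 118 and 209.9, log2 fold change 1.57, SE 0.26, limma adjusted p = 0.0803), Ifi47 (log2 fold change 0.65, limma adjusted p = 0.134) and Oas1b (log2 fold change 1.07, limma adjusted p = 0.155). Plasmacytoid dendritic cells, known for making much type I interferon, were sought by 9 markers. None was called in any comparison, and Siglech, the most specific of them, had at most 24.3 normalized counts in any lung.

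**Figure D5:**
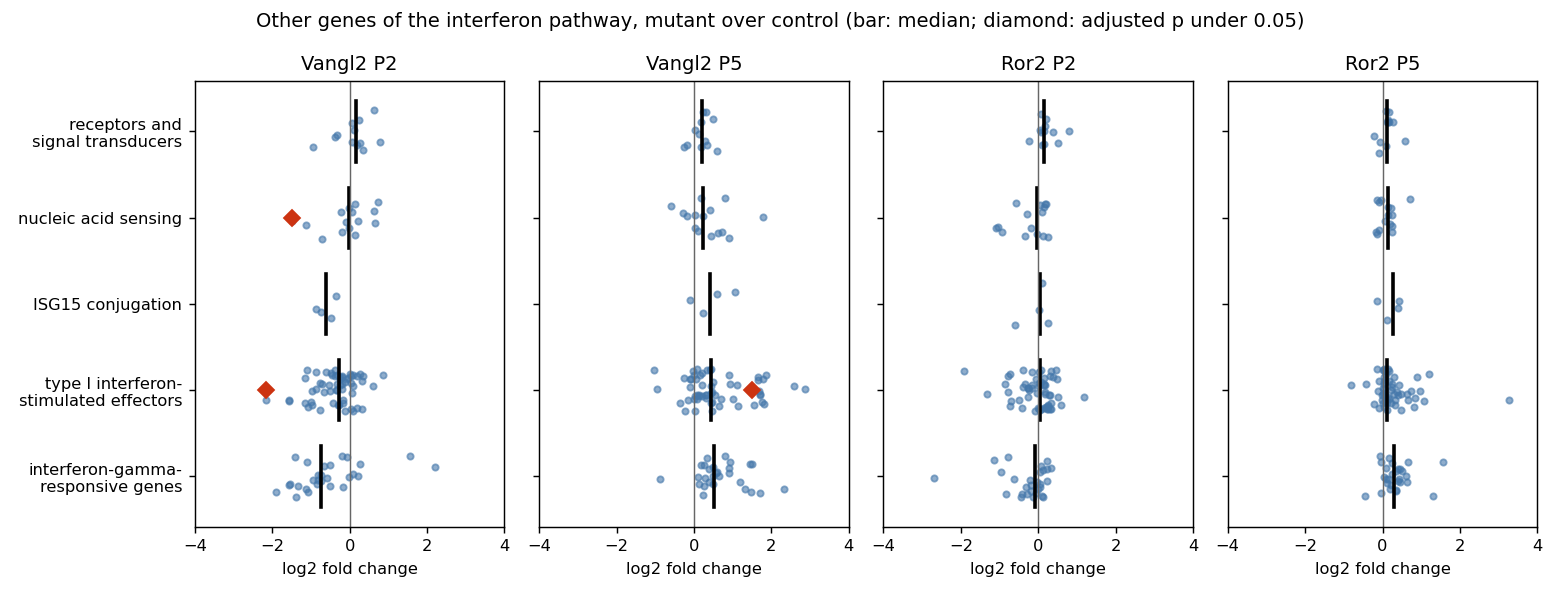
Log2 fold change of mutant over control (horizontal axis) of every tested gene in 5 interferon pathway lists (rows) for the 4 comparisons (panels), with a black bar for the median of a list and a red diamond for a gene with adjusted p under 0.05. The medians of the interferon-gamma-responsive genes are -0.74 and 0.53 in Vangl2 mutants at P2 and P5, and the 3 diamonds are Mb21d1 and Slfn9 at P2 and Slfn2 at P5.

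Several of the 9 genes varied together between lungs. Over 23 lungs, with each table centred on its own mean, Irf7 and Oasl2 had Pearson's r = 0.927, Isg15 and Oasl2 0.923 and Ifit1 and Oasl2 0.912. These lungs share the groups and libraries of the tables, so the values describe them and carry no test. They include the difference between mutant and control lungs, and Vangl2 P2 control replicate 1, which was high for Irf7, Oasl2, Isg15 and Ifit1. By rank the correlation of Irf7 with Oasl2 was lower (Spearman's rho = 0.840). Among 14589 genes the ones most like Irf7 outside the 9 were Ifi44 (r = 0.923), Uba7 (0.875), Psmb10 (0.872), Irf9 (0.867) and Ifih1 (0.860). Those most like Ifitm3 were 1810058I24Rik (0.852), Ly6a (0.852), Tapbp (0.829), Psme1 (0.813) and B2m (0.810), of which Tapbp, Psme1 and B2m serve antigen presentation. Ifitm3 had r = 0.798 with Irf7 and 0.566 with Ifitm1, its neighbour.

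Ifitm1, Ifitm2, Ifit3 and Rsad2 followed these genes less closely. Ifitm2 had r = 0.07 with Irf7, -0.04 with Oasl2 and -0.06 with Isg15, and Ifit3 had 0.49, 0.41 and 0.29 in the same order and its highest r, 0.61, with Ifitm1. Ifitm1 had r = 0.13 with Oasl2, 0.02 with Isg15 and 0.42 with Irf7. The genes most like it, ranked after its values were seen, included Rasgef1b (r = 0.951), Tmem176b (0.948), Dnase2a (0.942) and Pip5k1b (0.937). These values include the difference between mutant and control lungs. Rsad2 had r = -0.62 with Ifitm1 and -0.03 with Oasl2. The genes most like Rsad2, also ranked after its values were seen, included Slc4a1 (r = 0.911) and Bpgm (0.902), which encode the band 3 anion exchanger and a glycolytic enzyme of red cells, both products of the red cell lineage. Bpgm had 2666, 1859.8 and 1945 normalized counts in the Vangl2 P2 controls and 802, 1100.5 and 1222 in the mutants (log2 fold change -1.05). The part of red cells in the Rsad2 values was not tested.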

How the data were processed

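RNA of 24 left lung lobes was sequenced by the authors on Illumina HiSeq instruments. The submitters' processing notes name the build mm10 and DESeq2, and the aligner, read counter, annotation and strand setting are not given in the sources used here. The authors deposited 1 table for each of the 4 comparisons, and its signal values are reads on genes scaled by the size factor of the lung (normalized counts). The deposited columns of the authors' own comparison (log2 fold change, its standard error, a test statistic score, p-value and adjusted p-value) were not used. Groups follow the titles, since the genotype entries of the Vangl2 P5 mutants name Ror2 and those of the Ror2 P2 mutants name Vangl2.

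Each table was fitted alone with limma 3.58.1 (R 4.3.3, empirical Bayes with a mean-variance trend), taking log2 of the normalized count plus 1. Genes at 1 or more in at least 3 lungs were tested, and p-values were adjusted over them by Benjamini-Hochberg, at a threshold of 0.05. The pseudocount understates changes of weakly expressed genes. Differences between effects were fitted over 12 lungs with each table's own controls. Exact two-sided permutation tests (SciPy) cannot go below p = 0.1 for 3 lungs against 3. Control replicate 1 of the Ror2 P5 comparison was set to missing on chromosomes 5 to 9 and X. Replicates are separate samples by their labels, and nothing says that they are separate litters. Between lungs of a group the values differed by more than sampling noise (chi-square per degree of freedom of at least 7.28, 0 identical pairs). Whole reads were recovered in 21 lungs from the steps between values (100% within 0.02 of a whole read), and edgeR 4.0.16 and DESeq2 1.42.0 were run on them at P2 as alternatives. In Vangl2 P5 lungs, same-numbered control and mutant lungs deviated together (Pearson's r = 0.486, 0.471 and 0.290), so the fit with the replicate number as a block is given beside those results. No label says that these lungs are paired, and the pairing was inferred from the same data. In the other tables at least 1 such r was under 0.1.

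The steps were tested on simulated data. The 9 genes and all lists were chosen with earlier results of these data known. Genes outside the 9 were named when called (or as the 3 with the lowest p of the pathway lists), as the 5 genes most like Ifitm3 and Irf7 by Pearson's r, or, where said, after their values were seen. Some genes that these rules name are not reported here. Promoters and gene positions are from RefSeq and GENCODE (GRCm38).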

Additional observations from a re-analysis of the deposited data

How the results depend on the processing

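Groups of 3 lungs limit the precision, and counts of calls moved strongly with the lungs and the variance model. The cause was not tested. Leaving out each lung in turn, the genes called ran from 1 to 2333 in Vangl2 P2 (main count 626), 0 to 54 in Vangl2 P5 (98), 0 to 859 in Ror2 P2 (0) and 0 to 823 in Ror2 P5 (22). Of the 9 genes, 0 to 2, 0 to 1, 0 to 1 and 0 to 1 were then called. The most genes were called without mutant replicate 3 (Vangl2 P2, Ror2 P5) or mutant replicate 2 (Ror2 P2). For the difference between the Vangl2 and Ror2 effects at P5 the range was 0 to 4 (main count 2), and for the other 3 differences it was 0.

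Without the mean-variance trend the genes called were 1, 4, 2 and 11 in the same order, and 0 of the 9 in either Vangl2 comparison. Of the 9, 0 were called in Vangl2 P5 with a pseudocount of 4 or with no filter on low values (Ifitm1 at limma adjusted p = 0.0519 and 0.0527), and 2 with a mean of at least 10 or upper quartile scaling (Ifit3 added). DESeq2 called 2001 genes in Vangl2 P2, 3 of the 9 (Ifitm1, Oasl2 and Rsad2), and 794 in Ror2 P2, 1 of the 9 (Rsad2). The counts of the difference at P5 were 5 with upper quartile scaling and 4 without the trend. With the replicate block, 1558 genes and 6 of the 9 were called in Vangl2 P5. In the other tables same-numbered lungs did not all deviate together. The block there gave 2 of the 9 in Vangl2 P2 (Rsad2 added, limma adjusted p = 0.0149), and 1 gene each in Ror2 P2 and Ror2 P5. With the Ror2 P5 control replicate 1 as deposited, 1 gene was called and the log2 fold change of Ifitm2 reversed to 4.13. An alternative chosen after the data were seen, which also set that lung to missing on chromosome Y and for genes with no chromosome, changed no call of the 9.

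Log2 fold changes near 0 reversed in direction. In Ror2 P2 lungs Ifitm2 was at -0.021 with upper quartile scaling and -0.00037 with edgeR. Leaving out single lungs gave it -0.099 to 0.14, Ifitm3 -0.073 to 0.22 and Oasl2 -0.060 to 0.20. In Vangl2 P2 lungs the same gave Ifitm3 -0.090 to 0.39, Ifit3 -0.20 to 0.13 and Irf7 -0.69 to 0.16, the last above 0 without control replicate 1. The change with age in Vangl2 lungs ran from -0.56 to 0.072 for Ifitm1. In Ror2 lungs it ran from -0.37 to 0.61 for Ifitm1 (-0.36 with the replicate block) and from -0.19 to 0.048 for Ifitm2 (0.011 with upper quartile scaling). The Vangl2 minus the Ror2 effect at P2 ran from -0.14 to 0.34 for Ifitm3, -0.80 to 0.042 for Irf7 and -0.50 to 0.51 for Rsad2, and at P5 from -0.16 to 0.41 for Ifitm3 and -0.82 to 0.098 for Rsad2. None of these values passed the test. Medians of the pathway lists, which carry no test, were recomputed without each lung after the data were seen, and ran from -0.41 to 0.027 for all pathway genes and -1.13 to 0.016 for the interferon-gamma-responsive genes in Vangl2 P2, and from -0.082 to 0.10 for all pathway genes in Ror2 P2. Count tests were not run for P5, where reads of 3 lungs were not recovered.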
